A study of Mus musculus with 6 samples.

Results

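Osteopontin, its receptor CD44 and the integrin chains of leukocytes are the subject here. These are 10 genes taken by name from the deposited table of 23337 genes: Spp1, Cd44, Itgam, Itgax, Itgal, Itgb2, Itga4, Itgav, Itgb1 and Itgb3. All 10 passed the filter on low counts that left 12174 genes for the test. RNA came from mouse leukemia that the labels call primary and neonatal and the series title calls MLL-rearranged, and its libraries are labelled ccl5 (n = 3) or control (n = 3). Ccl5 is a chemokine, a secreted protein that attracts leukocytes through receptors on their surface. The labels give ccl5 replicate 1 as a tertiary transplant and ccl5 replicates 2 and 3 and control replicate 3 as primary transplants, and name no transplant for control replicates 1 and 2. The source names of these 3 primary transplant libraries share the prefix neo10, and that of ccl5 replicate 1 begins with neo30. Strain, fusion partner, dose and duration of exposure are not given in the sources used here, nor whether any of the libraries share an animal or a culture. The p-values therefore describe the spread between these samples, which may be technical.

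Osteopontin is a secreted acidic phosphoprotein of bone matrix that macrophages and osteoclasts also make, and it attaches cells through integrins and CD44. Integrins are surface receptors made of an α and a β chain that hold leukocytes to vessel walls, to matrix and to targets of phagocytosis once talin and kindlin bind the β tail inside the cell. Chains encoded by Itgal, Itgam and Itgax pair with β2, the α4 chain with β1 or β7, and αv with several β chains, β1, β3 and β5 among them. In the marrow these receptors anchor blood-forming and leukemic cells to stroma, and myeloid cells exchange 1 set for another as they mature.

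Gene counts summed to between 13421100 and 18445095 per library. Across 12174 genes the libraries formed 3 closely alike pairs, with a Pearson r of log2 CPM (CPM being TMM-scaled counts per 1000000) of 0.993 between ccl5 replicates 1 and 3, 0.995 between control replicates 1 and 2, and 0.995 between ccl5 replicate 2 and control replicate 3. All other pairs had r of at most 0.887, so 1 library of each group was closest to a library of the other group. The labels were used as given. Whether a label was exchanged, or whether these 2 libraries share a leukemia of origin, cannot be told from the labels, and every ccl5 against control value below depends on it. Each close pair still differed beyond sampling noise, with a chi-square per degree of freedom of 3.55 to 7.27 over genes with at least 20 summed counts. This does not tell biological from technical replicates. Each library was counted as a sample. Reads of 4 Y-linked genes were at 0 in ccl5 replicates 1 and 3 and summed to between 5103 and 7777 in the other libraries. Replicate 3 of ccl5 thus differed in these reads from ccl5 replicate 2 and control replicate 3, which share its neo10 prefix and primary label. It was closest to ccl5 replicate 1, the neo30 tertiary transplant. Ptprc, the leukocyte marker CD45, was measured at 522 to 783 CPM in every library, while the B-cell genes Pax5 and Ebf1 never exceeded 0.107 CPM. In edgeR's quasi-likelihood test 0 of 12174 genes passed an adjusted p of 0.05 (0%), and 1663 had an unadjusted p under 0.05 (13.7%). DESeq2 called 199.

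Levels of different genes are compared as CPM per kilobase of exon. On this scale Spp1 stood first in every library, at a mean of 10280 ± 5854 CPM per kb (SD, n = 6), followed by the β2 chain gene Itgb2 at 191 ± 27.6 and by Itgam at 127 ± 31.2. Itgb1 (82.7 ± 25.7), Cd44 (63.9 ± 24.6), Itgb3 (31.2 ± 36.6), Itgax (17.9 ± 13.5) and Itgav (10.9 ± 7.0) came next, and in each neighbouring pair of these 5 the gap was smaller than the larger SD. Itgav and Itga4 (10.8 ± 3.22) could not be ordered, with Itgav the higher in 2 of 6 libraries. Itgal was last at 7.17 ± 2.54 CPM per kb and lay below Itga4 in all 6 libraries. The plot of levels per library shows Spp1, Itgb2 and then Itgam or Itgb1 at the top of every library, whereas Itgb3 and Itgax moved through more than a decade.

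**Figure D1:**
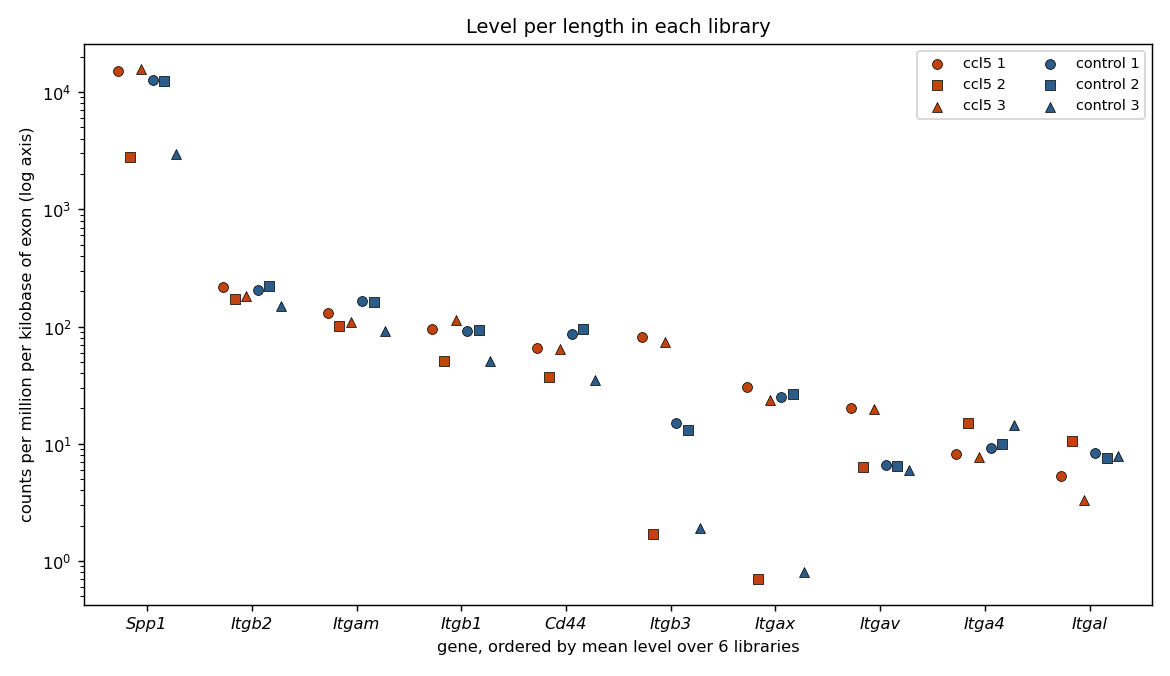
Level of each gene in CPM per kilobase of exon (log axis) in the 6 libraries; orange symbols are ccl5 libraries, blue symbols control libraries, and the symbol shape gives the replicate. Spp1 lies between 2814 and 15606 in every library, and Itgb3 and Itgax fall to between 0.698 and 1.92 in ccl5 replicate 2 and control replicate 3.

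Spp1 (chr5:104435111-104441053, mm10, plus strand), the ligand of the group, was among the most abundant RNAs of this leukemia. The ccl5 libraries gave 25140, 4666 and 25875 CPM, in replicate order as in all that follows, and the controls 20966, 20653 and 4963 CPM. One library of each group was thus low, the other 4 were several times higher, and the groups overlapped. By counts it ranked 1 to 4 among all genes of a library. Per kilobase it ranked 3 or 4 in the 4 high libraries, 10 in ccl5 replicate 2 and 11 in control replicate 3. It took 2.10% to 2.13% of all counts in the 4 high libraries, 0.552% in ccl5 replicate 2 (exact 95% binomial interval 0.548% to 0.556%) and 0.582% in control replicate 3 (0.578% to 0.586%). Such intervals cover counting error only. The log2 fold change of ccl5 over control was 0.26 (SE 0.81, edgeR adjusted p = 0.898), and it turned to -0.01 without TMM scaling. The share of raw counts averaged 1.60 ± 0.906% in ccl5 libraries and 1.60 ± 0.886% in controls (SD, n = 3 each).

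Other proteins of the same SIBLING family, encoded beside Spp1 and known from bone and teeth, gave almost no reads: Ibsp, Dmp1, Dspp and Mepe each stayed at or below 3 counts in every library, the level not told apart from 0. The osteoblast genes Bglap and Alpl were at or below 0.0712 CPM in all libraries, and Sp7 was at 0 in 5 libraries and at 0.426 CPM (8 counts) in control replicate 2. Runx2, from the same marker list, was not low, at 101, 81.8 and 93.4 CPM under ccl5 and 217, 205 and 80.6 CPM in controls. The 300 bases around the annotated start of Spp1 are shown because Itgax followed Spp1 most closely among the members (r = 0.993 over 6 libraries, 3 pairs of which are near copies), and the start of Itgav is shown because its layout differed. These promoter sequences are from RefSeq (GRCm38.p6, plus strand, 250 bases before to 50 after the start, chr5:104434861-104435160, chr7:128129300-128129599 and chr2:83724147-83724446). Distances are from the RefSeq start. Capitals mark 4 motifs searched on both strands: GAGGAAG, a purine-rich PU.1-like word; TGTGGT, the RUNX core; TGANTCA, the AP-1 site, which reads the same on both strands; and GGGCGG, the GC box.
Spp1: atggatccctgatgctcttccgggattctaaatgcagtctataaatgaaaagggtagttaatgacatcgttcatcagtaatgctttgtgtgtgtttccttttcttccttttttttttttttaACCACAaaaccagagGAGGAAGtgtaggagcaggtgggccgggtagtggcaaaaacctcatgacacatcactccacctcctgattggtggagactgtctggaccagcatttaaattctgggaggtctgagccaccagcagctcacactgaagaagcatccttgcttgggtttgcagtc
Itgax: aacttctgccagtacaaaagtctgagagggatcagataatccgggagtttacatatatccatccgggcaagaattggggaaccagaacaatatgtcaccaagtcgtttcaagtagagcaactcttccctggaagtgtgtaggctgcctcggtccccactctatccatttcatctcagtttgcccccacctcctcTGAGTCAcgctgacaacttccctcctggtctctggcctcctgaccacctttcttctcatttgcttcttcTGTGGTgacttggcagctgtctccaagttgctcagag
Itgav: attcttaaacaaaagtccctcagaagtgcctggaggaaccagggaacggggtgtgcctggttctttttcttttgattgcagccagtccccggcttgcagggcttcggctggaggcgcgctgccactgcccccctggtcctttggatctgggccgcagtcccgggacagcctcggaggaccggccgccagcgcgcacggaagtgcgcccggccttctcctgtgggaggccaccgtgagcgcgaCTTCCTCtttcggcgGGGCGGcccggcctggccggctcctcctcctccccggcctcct

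In the Spp1 window the RUNX core began 128 bases and the PU.1-like word 113 bases before the start, with no overlap between them. Itgax held an AP-1 site beginning 56 bases before its start and a RUNX core 13 bases after it, and Itgav a PU.1-like word 8 bases before and a GC box 7 bases after. RefSeq gave 8 windows for 7 of the 10 members, Spp1 having a second one at chr5:104435942-104436241 with none of the motifs. The PU.1-like word was in 4 of these 8 windows (Spp1, Cd44, Itgam and Itgav) and in 13.6% of all 32851 windows, the RUNX core in 3 of 8 (Spp1, Itgax and Itga4) and in 16.8%, the AP-1 site in 1 of 8 and in 7.81%, and the GC box in 5 of 8 and in 35.7%. A match is a description of these letters and not of binding.

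Cd44 (chr2:102811142-102901665, minus strand) encodes the receptor for hyaluronan that also binds osteopontin. Under ccl5 it stood at 370, 210 and 364 CPM, and the controls gave 486, 538 and 198 CPM. The lowest ccl5 and the lowest control library lay next to each other, and the other controls lay above every ccl5 library. Its log2 fold change was -0.37 (SE 0.43, edgeR adjusted p = 0.713). Variant exons of Cd44 cannot be told apart in counts per gene. Per kilobase, Spp1 exceeded Cd44 by 75.8-fold to 243-fold within a library, least in ccl5 replicate 2 and most in ccl5 replicate 3.

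The β2 integrins of myeloid cells are built on the chain encoded by Itgb2 (chr10:77530348-77565674), also known as CD18. Itgb2 was the steadiest member, at 622, 492 and 523 CPM under ccl5, while the controls gave 584, 632 and 431 CPM. Its highest library exceeded its lowest by 1.47-fold, a range smaller than that of most tested genes (19.4th percentile), and the log2 fold change was -0.01 (SE 0.22, edgeR adjusted p = 0.987). Itgam (chr7:128062640-128118491) encodes αM, or CD11b, which forms complement receptor CR3 with β2. It measured 615, 473 and 509 CPM under ccl5, while the controls gave 773, 753 and 431 CPM, with 2 controls above and 1 below all ccl5 libraries (log2 fold change -0.29, SE 0.28, edgeR adjusted p = 0.644).

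Itgax (chr7:128129568-128150657), which encodes αX or CD11c, a marker of dendritic cells and many macrophages, begins 11076 bases beyond the end of Itgam on the same strand. Unlike its neighbour it was nearly off in 2 libraries: it measured 123, 2.81 and 94.8 CPM under ccl5, while the controls gave 101, 108 and 3.25 CPM. The low values rest on 46 counts in ccl5 replicate 2 (exact 95% Poisson interval 2.06 to 3.75 CPM) and 59 counts in control replicate 3 (2.47 to 4.19 CPM), well above the 3-count floor of 0.16 to 0.273 CPM. The span between the highest and lowest library was 43.8-fold for Itgax (97.5th percentile of tested genes) and 1.79-fold for Itgam (39.6th percentile). The groups overlapped fully, and the log2 fold change of Itgax was 0.06 (SE 1.48, edgeR adjusted p = 0.988).

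Itgal (chr7:127296260-127335137), 727502 bases before Itgam, encodes αL, which forms LFA-1 with β2 and binds ICAM proteins on other cells. It measured 27.8, 55.6 and 17.3 CPM under ccl5, while the controls gave 43.6, 39.2 and 41.1 CPM. The 3 controls were close together, while the ccl5 libraries lay on both sides of them (log2 fold change -0.30, SE 0.42, edgeR adjusted p = 0.768). Without ccl5 replicate 2 the log2 fold change was -0.87 (SE 0.23, adjusted p = 0.0498), a fit in which 26.2% of all tested genes were called.

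Among the 3 α chains of β2 in this group of genes, Itgam made up most of the RNA per kilobase everywhere. Its share was 78.5% and 80.2% in ccl5 replicates 1 and 3, 83.2% and 82.4% in control replicates 1 and 2, and 89.9% and 91.4% in ccl5 replicate 2 and control replicate 3. Itgax contributed 12.6% to 18.3% in the first 4 of these libraries and 0.621% and 0.80% in the last 2, where Itgal reached 9.48% and 7.80%. The summed level of these 3 was 0.653 to 0.973 times that of Itgb2, so Itgb2 exceeded this sum in all 6 libraries. Itgad, which encodes a further α partner of β2, was not in the sum and measured 0.44 to 2.60 CPM. In the plot of ratios ccl5 replicate 2 and control replicate 3 stand together in both panels.

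**Figure D2:**
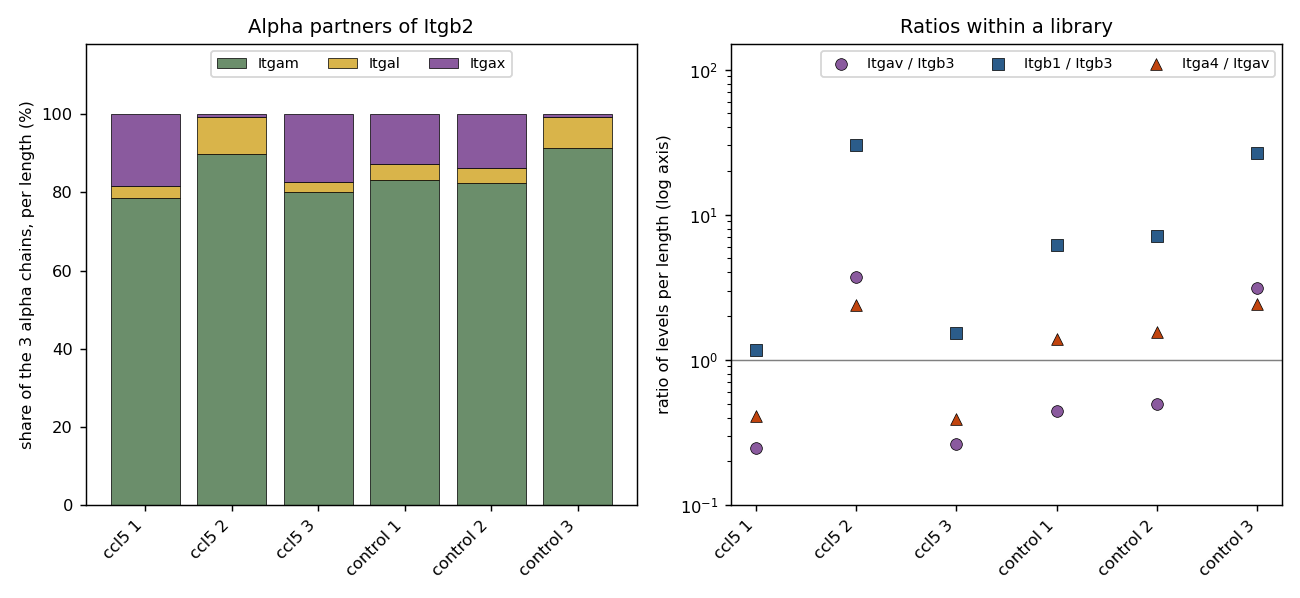
Left, share of Itgam, Itgal and Itgax in their summed level per kilobase (%) in each library. Right, ratio of levels per kilobase within a library (log axis; the grey line marks equal levels): Itgav over Itgb3 is 0.247 to 0.495 in 4 libraries and 3.13 and 3.75 in control replicate 3 and ccl5 replicate 2.

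Itgb1 (chr8:128685654-128733579) encodes β1, the common chain of receptors for fibronectin, collagen and laminin. It measured 403, 215 and 475 CPM under ccl5, while the controls gave 385, 389 and 214 CPM, with ccl5 replicate 2 and control replicate 3 at the bottom and nearly equal. The log2 fold change was 0.14 (SE 0.38, edgeR adjusted p = 0.878). Itga4 (chr2:79255426-79333114) encodes α4, which with β1 forms VLA-4, the receptor for VCAM1 on marrow stroma. It was the member with the opposite layout, at 81.2, 149 and 75.8 CPM under ccl5, while the controls gave 90.8, 98.8 and 142 CPM. The same 2 libraries that were lowest for Itgb1 were highest for Itga4, and the log2 fold change was -0.12 (SE 0.33, edgeR adjusted p = 0.888). The gene model of Itga4 overlaps that of Cerkl on the other strand. Cerkl had 671 counts in all libraries together, and reads of the 2 genes cannot be told apart by strand here. Per kilobase, Itga4 stood at 0.297 and 0.284 times Itgb1 in ccl5 replicate 2 and control replicate 3 and at 0.068 to 0.108 times in the other 4 libraries.

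Itgav (chr2:83724397-83806916) encodes αv, the partner of β3, β5 and β1 in receptors for osteopontin and other proteins with an RGD sequence. It measured 142, 44.7 and 139 CPM under ccl5, while the controls gave 46.5, 45.6 and 42.4 CPM. Replicates 1 and 3 of ccl5 lay far above the controls and replicate 2 lay inside the control range, between control replicates 2 and 3. The log2 fold change was 1.27 (SE 0.44), and the unadjusted p of 0.0278 was the only one among the 10 members under 0.05, where 13.7% of all genes had such a p. After adjustment over all genes it did not pass (edgeR adjusted p = 0.365). Without ccl5 replicate 2 it was called higher, at 1.65 (SE 0.10, edgeR adjusted p = 0.00235), where 26.2% of all genes were called. The 2 ccl5 libraries above the controls were also the 2 without Y-linked reads, whose part in the difference was not tested.

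Itgb3 (chr11:104608000-104670471) encodes β3, known from platelets with αIIb and from osteoclasts and macrophages with αv. It varied most of all members, at 472, 9.77 and 428 CPM under ccl5, while the controls gave 86.1, 75.5 and 11.1 CPM, a 48.3-fold span (97.6th percentile of tested genes). It was highest in ccl5 replicates 1 and 3, intermediate in control replicates 1 and 2, and lowest in the remaining library of each group, whose counting intervals overlapped (8.32 to 11.4 and 9.63 to 12.8 CPM). The log2 fold change was 2.40 with an SE of 1.37 (edgeR adjusted p = 0.455). Without ccl5 replicate 2 it was 2.97 (SE 0.82, edgeR adjusted p = 0.0545). Among primary transplants, with 1 control library, it was 4.27 (SE 2.48), which did not pass.

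The RNA balance of αv and its possible β partners differed between libraries. Per kilobase, Itgb3 exceeded Itgav in 4 libraries, with Itgav at 0.247, 0.265, 0.442 and 0.495 times Itgb3 in ccl5 replicates 1 and 3 and control replicates 1 and 2. In ccl5 replicate 2 and control replicate 3 the order was reversed, at 3.75 and 3.13. Itgb1 exceeded Itgb3 in all 6 libraries, by 1.18-fold and 1.53-fold in ccl5 replicates 1 and 3, by 6.17-fold and 7.10-fold in control replicates 1 and 2, and by 30.3-fold and 26.5-fold in the last 2. Among the ratios examined, only Itgav over Itgb1 had groups that did not overlap, at 0.21, 0.124 and 0.173 against 0.0717, 0.0696 and 0.118, a ratio singled out after its values were seen. There ccl5 replicate 2 and control replicate 3 were almost equal, and 3 against 3 libraries cannot give a two-sided exact permutation p below 0.1.

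In the comparison of ccl5 with control, 5 of the 10 members lay above and 5 below zero, with a median log2 fold change of 0.02, where all tested genes had a median of -0.01. edgeR called 0 of 10, and DESeq2 also called 0 of 10 (1.64% of the genes it adjusted), with 2 members at an unadjusted p under 0.05, as were 2306 of 12164 genes in that fit. No member had groups without overlap, against 15.8% of all tested genes (8.27% with ccl5 above and 7.49% with ccl5 below). Scaling by library size without TMM moved the median of all genes by -0.16 and left 2 members higher and 8 lower, with the directions of Spp1, Itgax and Itgb1 turned. limma-voom with sample quality weights called 6 members (Itgav and Itgb3 higher, Cd44, Itgal, Itgam and Itga4 lower), where it called 66.5% of all genes. That fit gave ccl5 replicate 2 a weight of 0.0676 and control replicate 3 a weight of 0.125, with weights of 2.22 to 4.54 for the rest.

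**Figure D3:**
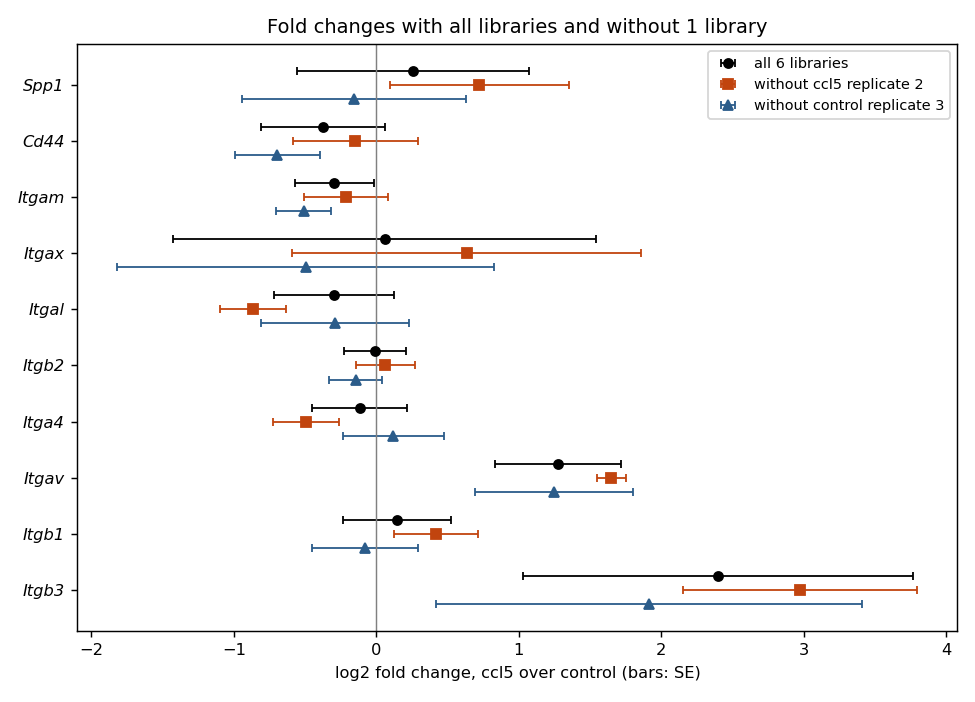
Log2 fold change of ccl5 over control for each gene with its SE (edgeR), with all 6 libraries (black circles), without ccl5 replicate 2 (orange squares) and without control replicate 3 (blue triangles). Itgav stays between 1.25 and 1.65 in these fits, and Spp1 goes from -0.16 to 0.72 across the zero line.

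Single libraries decided the calls. Leaving out ccl5 replicate 2 gave 2 called members, Itgav higher and Itgal lower, and 6 members without overlap (Spp1, Itgal, Itga4, Itgav, Itgb1 and Itgb3), where 64% of all genes then had no overlap. Leaving out control replicate 3 gave 0 called members with 1.88% of all genes called, and 2 without overlap (Cd44 and Itgam), where 44.5% of all genes had none. Leaving out any other library gave 0 called members (0% of genes) and 0 without overlap, where 17% to 18.7% of all genes had none. The fit restricted to primary transplants set 2 ccl5 libraries against control replicate 3, and the lone control was assumed to vary like the ccl5 libraries. Of these libraries ccl5 replicate 3 had no Y-linked reads, so they were not alike apart from treatment.

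The members did not share one layout across the 6 libraries. Between the libraries of a close pair the median absolute log2 difference of the 10 members was 0.105 to 0.189, and between other libraries 0.288 to 1.39. Spp1 ran closely with Itgax (r = 0.993), Itgb1 (0.988), Itgb3 (0.934) and Cd44 (0.883), and Itga4 ran opposite to Itgb1 (-0.981), Itgb3 (-0.978) and Spp1 (-0.976). Itgav was close to Itgb3 (0.861) but not to Itgb2 (0.31), Cd44 (0.20) or Itgam (-0.05). Itgal ran opposite to Itgav (-0.877) and was hardly related to Itgam (0.06), although both encode partners of β2. These correlations of log2 CPM describe 6 libraries in 3 near-identical pairs and are not tests.

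**Figure D4:**
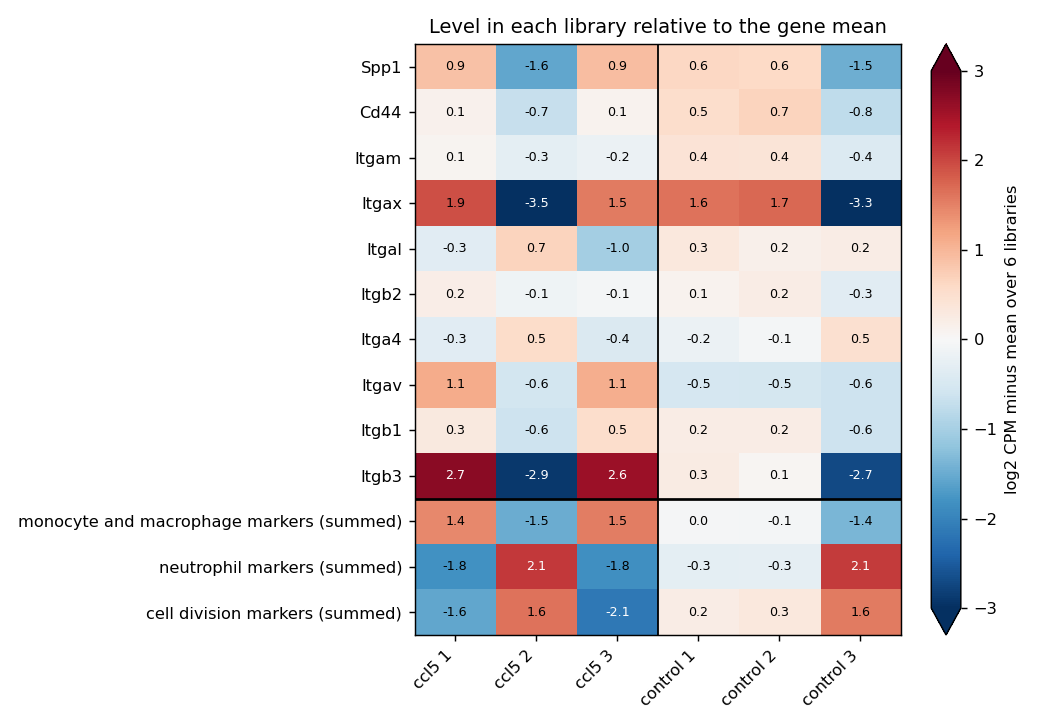
Log2 CPM of each gene, and of 3 summed marker lists, minus its mean over the 6 libraries (red above, blue below; the colour scale ends at 3 on either side). ccl5 replicate 2 and control replicate 3 are low for Spp1, Itgax, Itgb1 and Itgb3 and high for Itga4, neutrophil and cell division markers.

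Sums of cell-state markers differed between the same libraries. Summed over 18 monocyte and macrophage markers, the level was 47443, 6244 and 50135 CPM under ccl5, while the controls gave 16840, 16570 and 6674 CPM. In the same order, 14 neutrophil markers summed to 1048, 15935 and 1023 against 3001, 3051 and 15710 CPM, and 10 cell division markers to 231, 2104 and 155 against 791, 849 and 2014 CPM. ccl5 replicate 2 and control replicate 3, low for Spp1, Itgax and Itgb3, were therefore high in the summed neutrophil and division markers. The part of these markers in the differences among the members was not tested. Elane and Ngp, at 4548 and 4905 CPM in ccl5 replicate 2, carried much of the neutrophil sum. Gpnmb and Lyz2, at 20441 and 17581 CPM in ccl5 replicate 3, carried much of the monocyte sum. Some listed genes had another layout: Mmp8 measured 465, 250 and 533 against 44.1, 35.6 and 286 CPM. Csf3r measured 233, 193 and 233 against 68.3, 63.2 and 200 CPM, and Cd14 31.3, 17.6 and 29.9 against 195, 188 and 18.4 CPM. Csf1r, the M-CSF receptor, measured 406, 82.0 and 370 CPM against 111, 107 and 77.6 CPM. Its level in ccl5 replicate 2 lay inside the control range, as that of Itgav did. Mki67, a proliferation gene, measured 85.0, 687 and 61.8 against 201, 199 and 659 CPM. In bulk RNA fewer cells of a type and less RNA per cell cannot be told apart.

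Markers of other cell types were low. Platelet markers beside Itgb3 were near 0 for Gp9, Gp1bb and Gp6 (at most 0.32 CPM). Pf4, which macrophages can also express, measured 24.4, 5.25 and 23.0 CPM against 0.317, 0.48 and 7.54 CPM. Ppbp, also lowest in control replicates 1 and 2, measured 2.56, 2.87 and 3.37 against 0.127, 0 and 3.36 CPM. Gp1ba went the other way, at 1.99, 1.59 and 1.55 against 3.49, 2.88 and 2.42 CPM. That list of 8 summed to 35.2, 10.6 and 33.1 CPM under ccl5 and to 7.42, 7.89 and 15.3 CPM in controls. The sum was below Itgb3 in 4 libraries and above it in ccl5 replicate 2 and control replicate 3, and its part in the level of Itgb3 was not tested. Markers of T and NK cells (7 genes) summed to 0.427 to 3.08 CPM, and of B cells (7 genes) to 11.6 to 16.9 CPM, nearly all from Cd79b. Erythroid markers (8 genes) summed to 1.18 to 2.02 CPM. Of these, 5 had 0 counts in every library, the globin genes Hba-a1, Hba-a2, Hbb-b1 and Hbb-b2 among them. Whether reads of these globin genes could be counted was not tested. The 15 markers of stroma, osteoblasts and endothelium summed to 83.4 to 222 CPM, most of it Runx2, which measured 217 and 205 CPM in control replicates 1 and 2 and 80.6 to 101 CPM in the other libraries.

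Of 18 other integrin chains 11 were tested, 7 with a higher and 4 with a lower fold change, none passing (median log2 0.08). Itgb5, a further partner of αv, was the only one of the 11 without overlap, where 15.8% of all tested genes had none. It measured 187, 93.1 and 145 CPM under ccl5, while the controls gave 48.3, 41.5 and 78.9 CPM (log2 fold change 1.33, SE 0.36, edgeR adjusted p = 0.365). Itgb7, the other partner of α4, followed the layout of Itgb3, at 212, 11.5 and 182 against 46.4, 40.9 and 11.9 CPM. Itga8 measured at most 3.87 CPM. Itga2b, the platelet partner of β3, measured 0.733 to 6.05 CPM.

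Among 18 integrin ligands 10 were tested, 3 higher and 7 lower, none passing (median log2 -0.43). The genes with the smallest p were F11r (log2 fold change -1.48, SE 0.58), Mfge8 (2.04, SE 0.90) and Cd47 (-0.43, SE 0.20). Mfge8, a bridge between αv integrins and dying cells, measured 76.6, 6.41 and 63.1 CPM under ccl5, while the controls gave 15.0, 15.0 and 5.61 CPM, a layout like that of Itgb3. Vcam1, the VLA-4 ligand, was singled out after its values were seen: it measured 325 and 339 CPM in ccl5 replicate 2 and control replicate 3 and 1.73 to 8.05 CPM in the other 4 libraries, so it was high where Itga4 was high.

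Of 17 genes that regulate integrin activation in either direction, 15 were tested, 9 higher and 6 lower, none passing (median log2 0.19). Cyth1, a β2-binding exchange factor, measured 163, 68.0 and 163 against 53.1, 51.6 and 67.5 CPM. Apbb1ip, which encodes the talin recruiter RIAM, measured 99.9, 80.2 and 88.8 against 59.0, 57.1 and 70.5 CPM, and Rapgef1 113, 60.7 and 114 against 59.2, 53.6 and 54.3 CPM. These 3 of the 15 had groups without overlap, as did 15.8% of all tested genes, and for Cyth1 the nearest libraries were almost equal. The log2 fold change was -0.05 (SE 0.17) for Fermt3, the kindlin of blood cells, and 0.40 (SE 0.24) for Tln1, talin; both were looked up after the values were seen.

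In the list of adhesion complexes and signalling from engaged integrins, 24 of 28 genes were tested, 14 higher and 10 lower, none passing (median log2 0.29), and 7 had groups without overlap, where 15.8% of all tested genes had none. Syk, the kinase downstream of β2 and Fc receptors, measured 584, 233 and 636 against 143, 128 and 227 CPM (log2 fold change 1.54, SE 0.45, edgeR adjusted p = 0.365), with ccl5 replicate 2 and control replicate 3 again side by side. Lcp2, its adaptor SLP-76, was laid out the other way, at 81.8, 122 and 80.5 against 199, 208 and 123 CPM. Rac1 had a log2 fold change of 0.49 (SE 0.17).

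Around CD44, 16 of 21 genes for partners, hyaluronan metabolism and shedding were tested, 7 higher and 9 lower, none passing (median log2 -0.12). Mmp14, a membrane protease that cleaves CD44, measured 60.4, 10.6 and 60.4 against 1.08, 1.65 and 7.37 CPM (log2 fold change 3.69, SE 1.02, edgeR adjusted p = 0.365). Cd74 measured 70.4, 1.10 and 56.0 against 0.951, 1.92 and 1.82 CPM, and Hyal1, a hyaluronidase, 14.3, 1.40 and 15.7 against 0.888, 1.17 and 1.76 CPM, both high in ccl5 replicates 1 and 3 only. Of the selectins and their ligands 7 of 8 were tested, 1 higher and 6 lower, none passing (median log2 -0.51). Selp, P-selectin, measured 0.364 to 6.98 CPM. Fut7, which builds selectin ligands, had a log2 fold change of -0.85 (SE 0.61).

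The marker lists were counted the same way. Of 18 monocyte and macrophage markers 16 were higher and 2 lower (median log2 1.28), none passing, with Mertk and Ctss among those of smallest p. Of 13 tested neutrophil markers 5 were higher and 8 lower (-0.07), with Csf3r, Mmp8 and Ctsg first, and all 10 cell division markers were lower (-0.63), with Cdk1, Ccna2 and Bub1 first, again none passing. Lck was the only tested T-cell gene, Cd79a and Cd79b the only tested B-cell genes, and no erythroid gene was tested. Of the 4 tested platelet markers 3 were higher and 1 lower, and of the 3 tested stromal markers 1 was higher and 2 were lower, none passing.

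The genes most like each member were sought among 10149 tested non-members with a mean log2 CPM of at least 1, by Pearson r of log2 CPM over the 6 libraries. For Spp1 they were Nf1, a RAS inhibitor (31.8 to 75.5 CPM), Hpse, the enzyme that cuts heparan sulfate, and H2-M3, at r = 0.9999, 0.9999 and 0.9997. Hpse measured 859, 80.7 and 886 CPM under ccl5, while the controls gave 659, 634 and 84.9 CPM, a wider span than Spp1. For Itgax they were Plau, the urokinase protease, at 83.5, 3.91 and 81.4 against 77.9, 84.9 and 3.96 CPM, then Adamtsl5 and Zswim6 (all r = 0.999). For Cd44 they were Ppargc1b, Mef2c and Ripk2 (r = 0.998 each).

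Itgav was closest to Atp6ap1, a subunit of the proton pump, to Jun, an AP-1 factor, and to Psap, prosaposin (r = 0.9997, 0.999 and 0.999). Psap measured 17253, 1078 and 15482 CPM under ccl5, while the controls gave 1081, 1083 and 1001 CPM, high in ccl5 replicates 1 and 3 and nearly level elsewhere. Itgb3 was closest to Rasa4 (343, 25.5 and 349 against 116, 104 and 27.9 CPM), Fndc3a and Hivep2 (r = 0.9997, 0.999 and 0.999). Itga4 was closest to Nrm, Chrnb2 and Dennd4a (r = 0.998 each), and Itgb1 to BC028528, Rlf and Mbtps2 (0.999, 0.998 and 0.997). For Itgam the closest were Ano8, Lrg1 and Cpt2 (0.994, 0.994 and 0.993), for Itgal Mrps26, Thop1 and Polh (0.995, 0.993 and 0.99), and for Itgb2 Dynll2, Spats2 and Slc39a6 (0.983, 0.975 and 0.973). These values rest on 3 near-identical pairs of libraries and describe a shared layout.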

How the data were processed

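Poly(A)-selected RNA of 6 libraries was read from one end over 100 bases, per the labels' protocols. The authors deposited raw read counts per gene, made with featureCounts 1.5.1 on primary alignments with the UCSC mm10 annotation and no strand option, per the file headers. That file also gives the other value used here, the exon length behind each value per kilobase, per the file headers. The submitters' processing notes also name TopHat, Bowtie, Trimmomatic and DESeq2, whose settings are not given in the sources used here.

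Groups came from the treatment labels and titles. Counts were filtered with filterByExpr (minimum count 10), scaled by TMM and tested over all genes in edgeR 4.0.16 (R 4.3.3) by its quasi-likelihood test, two-sided, Benjamini-Hochberg adjusted, threshold 0.05, with no block. Standard errors were derived from the fold change and its F value. Alternatives used DESeq2 1.42.0 and limma 3.58.1. The edgeR fit alone was tested on simulated counts, drawn independently for each library and so without the close pairs seen here. Named genes are the members, the 3 smallest p of each list and the 3 most alike genes per member (prior count 2 for log2 CPM), among which names of the Gm, Rik and LOC kind were left out. Csf1r, Mki67, Itga2b, Elane, Ngp, Gpnmb, Lyz2, Cd14 and the low marker genes named beside a list were chosen after their values were seen. Members and lists were chosen with earlier results of these data known. A few genes that the naming rule picks are not reported here.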

Additional observations from a re-analysis of the deposited data

How the results depend on the processing

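No paired analysis was possible because the ccl5 titles carry no replicate numbers to match with those of the controls. Without ccl5 replicate 2 the log2 fold changes were 0.72 for Spp1, 0.63 for Itgax, -0.87 for Itgal, -0.49 for Itga4 and 0.42 for Itgb1. Genes called numbered 0 in the reported fit, 199 with DESeq2, 8097 with limma-voom and 0 to 3299 when 1 library was left out (3299 without ccl5 replicate 2, 237 without control replicate 3). Called members numbered 0 in the reported fit (0% of all genes called) and 6 with limma-voom (66.5%). With 1 library left out they numbered 0 to 2 (0% to 26.2% of all genes). Members without overlap numbered 0 in the reported fit, where 15.8% of all genes had none. With 1 library left out they numbered 0 to 6, where 17% to 64% of all genes had none. The 10 members kept their rank by level per kilobase in 8 to 10 cases when 1 library was left out and in 8 without TMM. No member passed the test in the reported fit, and fold changes near 0 turned sign often. Without ccl5 replicate 1 the log2 fold change turned to -0.01 for Spp1, -0.52 for Itgax and 0.03 for Itga4. Without ccl5 replicate 3 it turned to -0.05 for Spp1, -0.15 for Itgax, 0.023 for Itgal, 0.03 for Itgb2, 0.07 for Itga4 and -0.083 for Itgb1. Without control replicate 3 it turned to -0.16 for Spp1, -0.50 for Itgax, 0.12 for Itga4 and -0.08 for Itgb1. Itgb2 turned to 0.06 without ccl5 replicate 2, 0.04 and 0.10 without control replicates 1 and 2, 0.0015 without a filter and 0.0036 with DESeq2. Among primary transplant libraries Cd44 turned to 0.51, Itgam to 0.17 and Itgb2 to 0.22. There Spp1 was 1.60, Itgax 3.88 and Itgb3 4.27, with no gene called. In the analyses added after seeing the data, library size without TMM gave -0.0068 for Spp1, -0.22 for Itgax and -0.080 for Itgb1. The libraries with Y-linked reads gave -1.74 for Spp1, -4.65 for Itgax, 0.43 for Itgal, 0.43 for Itga4, -0.0065 for Itgav, -0.62 for Itgb1 and -2.56 for Itgb3, where the lone ccl5 library was assumed to vary like the controls. The cause of these changes was not tested. The lowest count of a member in any library was 46. The part of depth and of the spread between libraries in these results was not tested.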
